A study of Mus musculus with 78 samples.

Results

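DC101, a rat antibody that blocks mouse VEGF receptor 2, was compared with no antibody treatment at day 5 in flank tissue injected with an adenovirus carrying VEGF-A164. The members are the 16 arrays that the sample titles place in these groups, 8 with DC101 and 8 untreated, of 78 arrays in all. Gene expression was measured on Affymetrix Mouse Genome 430 2.0 arrays. The mice were female, 4 to 6 weeks old, and of the athymic nude strain Crl:NU(NCr)-Foxn1nu, which lacks a thymus and most T cells but keeps B cells, natural killer cells and myeloid cells. The adenovirus Ad-VEGF-A164 was injected into the skin of the flank in the untreated and antibody groups, so the untreated tissue carries the virus too. DC101 was given into the peritoneum at 20 mg per kg, and the untreated mice received no antibody. As references, 8 arrays of day 0 flank labelled control and 8 day 5 arrays of virus-injected flank from mice given a further antibody, G6, at 10 mg per kg were used. The labels place G6 among VEGF receptor antibodies but name no target for it. The 8 DC101 and 8 untreated arrays of day 20 served to compare the effect of DC101 between the days. Empty vector was given to no group. It is not stated whether the control flank was injected, or whether the day counts treatment or harvest. At least 5 animals per group are mentioned and arrays are not tied to animals, so some of the 8 arrays may share an animal and p-values may then be too small.

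VEGF-A acts on endothelial cells chiefly through VEGF receptor 2, encoded by Kdr, while Flt1 binds VEGF-A and placental growth factor and limits the ligand that reaches Kdr. Signalling through Kdr drives tip cells, the leading cells of a sprout, which make Dll4, Esm1, Apln, Angpt2 and Pdgfb. Dll4 activates Notch in neighbouring cells, and Pdgfb recruits pericytes, which cover the vessel wall. DC101 occupies Kdr on the cell surface, and vessels in tumours and in this virus model are known to depend on that receptor early in their growth.

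Levels are given as log2(signal + 16), where signal is the deposited array intensity, and each group of 8 arrays is described by its lowest, median and highest array. Differences are DC101 minus untreated on this log2 scale with the standard error (SE) of a limma model, and a gene passed the test at an adjusted p of 0.05. Overlap of the groups is stated for named genes and was not counted over all genes. Most named genes were picked by their difference, so a lack of overlap is no separate support. The tissue is bulk flank, so fewer cells of a type and less RNA per cell cannot be told apart. Among the DC101 arrays, those numbered 19 and 20 stood apart. Their mean level over 22 hair follicle genes was 9.59 and 9.66, against 11.2 to 13.5 on the other DC101 arrays and 11.6 to 13.7 on the untreated ones. Hair levels as low occurred in other groups of the series. They ran from 8.7 to 12.3 in G6 day 5, 7.5 to 13.5 in untreated day 20 and 9.4 to 14.8 in G6 day 60. The ratio of 3 prime to 5 prime probe signal, a sign of RNA quality, differed between the groups. For Actb its median was 1.29 (1.19 to 1.66) with DC101 and 1.62 (1.36 to 1.69) untreated, and for Gapdh 0.847 (0.785 to 1.01) and 1.03 (0.907 to 1.10). Results were therefore also computed without arrays 19 and 20 and with these ratios as covariates.

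Of 14718 genes tested, 1732 (11.8%) differed between DC101 and untreated tissue, 686 higher (4.66%) and 1046 lower (7.11%). At least 2-fold differences past the test numbered 295 (2.00%), of which 181 were higher and 114 lower. Without arrays 19 and 20 the count was 914. Leaving out 1 array at a time gave 1246 genes (without DC101 array 20) to 2001 (without DC101 array 22). The median difference over all genes was -0.017.

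Tip cell and VEGF-induced genes fell in 13 of 30 measured, and most general endothelial markers did not pass the test. Of the tip cell genes 1 rose, and the list had a median difference of -0.69 against -0.017 over all genes. Without arrays 19 and 20 the number that fell was 9. Of 37 pan-endothelial genes 5 fell (Ecscr, Icam2, Flt1, Myct1 and Sox18) and 1 rose (Vwf), with a median of -0.38. Over all genes 7.11% were lower and 4.66% higher. The count that fell was 2 without arrays 19 and 20, between 2 and 7 over the 16 fits that each left out 1 array, and 19 in a model of only the groups compared.

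Among the VEGF receptors, Flt1 fell. Its level was 12.84, 13.30 and 13.69 (lowest, median, highest) untreated and 11.41, 12.01 and 12.57 with DC101, and the groups did not overlap. The difference was -1.22 (SE 0.30), 2.33-fold lower, with an adjusted p of 0.00387. Of its other 3 probe sets, 2 fell as well and 1 stood at -0.44 with an adjusted p of 0.342. Kdr, the target of the antibody, stood at 12.64, 13.34 and 13.84 untreated and 12.002, 12.74 and 12.95 with DC101. All 8 DC101 arrays lay below the untreated mean, but the groups overlapped and the difference of -0.66 (SE 0.26) had an adjusted p of 0.0893. Flt4, the receptor for VEGF-C and VEGF-D, differed by -0.50 (SE 0.34, adjusted p 0.355). The co-receptors Nrp1 and Nrp2 differed by -0.33 and -0.16 on their brightest probe sets, with adjusted p of 0.337 and 0.697. Another Nrp1 probe set passed the test at -1.14 (adjusted p 4.36e-06). The remaining Nrp1 probe sets stood at -0.55 and -0.58, with adjusted p of 0.15 and 0.115. No other Nrp2 probe set passed.

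**Figure D1:**
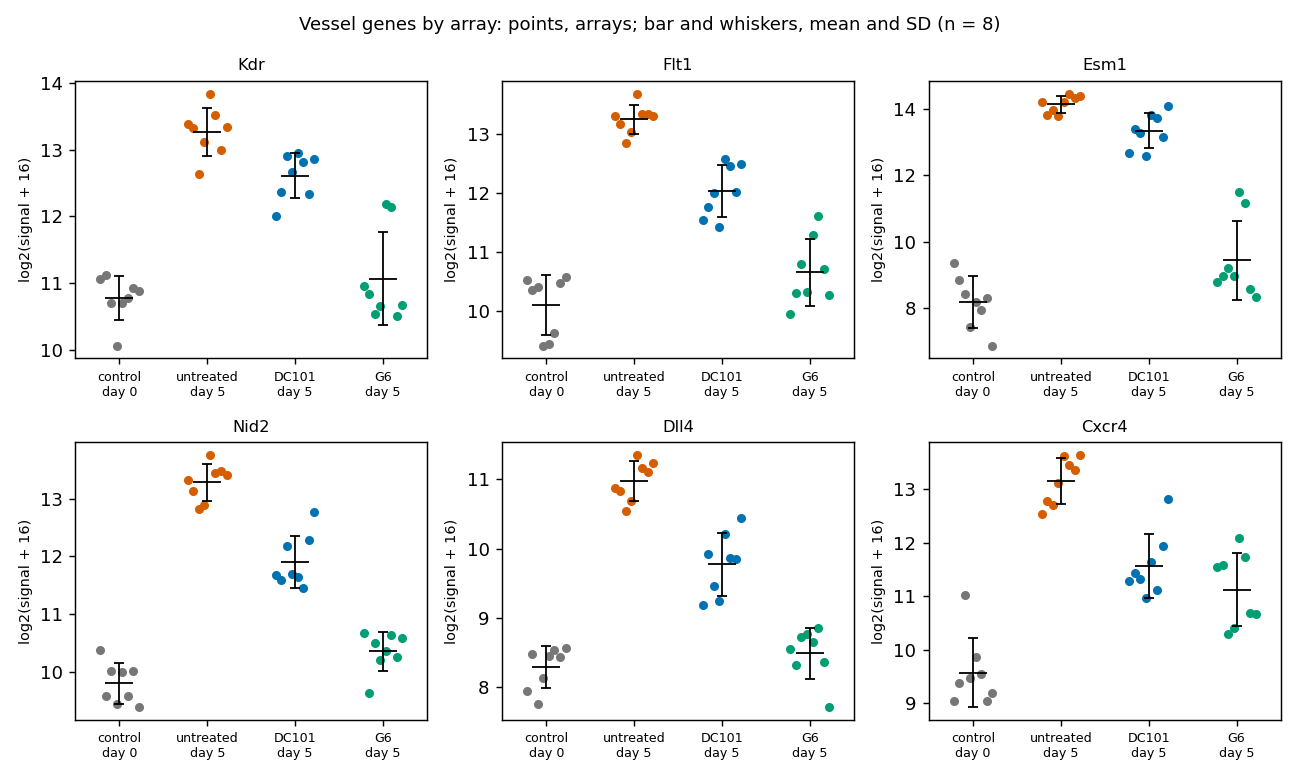
Levels, log2(signal + 16), of the receptors Kdr and Flt1 and the tip cell and vessel genes Esm1, Nid2, Dll4 and Cxcr4 on each array of control day 0, untreated day 5, DC101 day 5 and G6 day 5. Points are arrays, the bar is the mean and whiskers are the SD of 8 arrays; for Flt1, Nid2 and Dll4 the DC101 arrays lie wholly below the untreated ones, and for Esm1 the G6 median of 8.97 lies far below the DC101 median of 13.34.

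Among the VEGF ligands, Vegfa did not pass the test. Its level was 13.51, 14.06 and 14.87 untreated and 12.52, 13.96 and 14.87 with DC101, a difference of -0.38 (SE 0.39, adjusted p 0.578). Both groups lay above the control flank, whose highest array was 10.91. Pgf, placental growth factor, fell from 10.27, 10.53 and 10.66 untreated to 8.12, 8.92 and 10.13 with DC101. That difference was -1.60 (SE 0.44, adjusted p 0.00967), 3.03-fold lower, with no overlap. Its call was lost with the RNA ratios as covariates and when arrays of adjacent numbers were averaged. Vegfd rose by 0.66 (SE 0.23, adjusted p 0.047), a call that held in 6 of the 16 fits that left out 1 array and was lost without arrays 19 and 20. Vegfb and Vegfc differed by 0.52 and -0.58, with adjusted p of 0.269 and 0.152.

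The angiopoietins moved in opposite directions. Angpt2, which destabilises vessels and is made by tip cells, fell from 11.43, 11.92 and 12.06 to 10.47, 10.95 and 11.25, a difference of -0.94 (SE 0.28, adjusted p 0.0202) with no overlap. Angpt1, the agonist of Tie2 made by mural cells, rose by 0.57 (SE 0.15, adjusted p 0.0074), and all 8 DC101 arrays lay above the untreated mean. Both calls were lost without arrays 19 and 20, where 6 DC101 arrays remain. The receptors Tek (Tie2) and Tie1 differed by 0.44 and -0.86, with adjusted p of 0.212 and 0.128.

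Dll4, the Notch ligand of tip cells, fell from 10.54, 10.99 and 11.35 untreated to 9.18, 9.85 and 10.45 with DC101. The difference was -1.21 (SE 0.21, adjusted p 2.27e-05), and the groups did not overlap. Its other probe set stood at -1.16 with an adjusted p of 0.116. Heyl, a Notch target of mural cells, fell from a median of 11.78 to 10.67, by 1.06 on the log2 scale (SE 0.20, adjusted p 0.000172), again with no overlap. Sox17, an arterial transcription factor, fell from 12.46, 12.63 and 12.92 to 11.21, 11.38 and 12.05, a difference of -1.17 (SE 0.28, adjusted p 0.003). Jag1 (-1.04) and Efna1 (-0.49) completed the 5 of 18 Notch and arterial genes that fell, and none rose. Sox18, which with Sox17 and Sox7 forms the endothelial SoxF family, fell from a median of 12.84 to 11.57, a difference of -1.23 (SE 0.28, adjusted p 0.00188), and Sox7 fell by 0.79. Of 21 endothelial transcription factors 5 fell and 2 rose, beside 7.11% lower and 4.66% higher over all genes.

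Cxcr4, the chemokine receptor of sprouting endothelium and of leukocytes, fell from 12.53, 13.24 and 13.64 to 10.96, 11.38 and 12.82. The difference was -1.58 (SE 0.29, adjusted p 7.5e-05), and a single DC101 array reached into the untreated range. Nid2, a basement membrane linker protein, fell from 12.82, 13.37 and 13.76 to 11.45, 11.68 and 12.77, a difference of -1.37 (SE 0.27, adjusted p 0.00025). Apln, the tip cell peptide, differed by -0.61 (SE 0.20, adjusted p 0.0312), a call that was lost without arrays 19 and 20, while its receptor Aplnr differed by 0.10 (adjusted p 0.864). Esm1, a secreted proteoglycan that is strongly VEGF-induced, stood at 13.80, 14.20 and 14.46 untreated and 12.59, 13.34 and 14.09 with DC101, a difference of -0.80 (SE 0.56) with an adjusted p of 0.374. Kcne3, a potassium channel subunit of tip cells, differed by -1.03 (SE 0.41, adjusted p 0.0885). The junction and surface proteins of all endothelium Cdh5 (-0.64, adjusted p 0.14), Pecam1 (-0.60, adjusted p 0.208), Emcn (-0.87, adjusted p 0.067) and Cd93 (-0.83, adjusted p 0.0663) did not pass the test, although at least 7 of the 8 DC101 arrays lay below the untreated mean for each. In a model of only the groups compared 20 tip cell genes fell, against 13 here and 7 when arrays of adjacent numbers were averaged.

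Of 23 pericyte and smooth muscle genes 7 fell and none rose, beside 7.11% lower and 4.66% higher over all genes. The median difference of the list was -0.25. The count was 7 without arrays 19 and 20 as well. Pdgfb, the endothelial ligand that recruits pericytes, fell from 12.34, 12.93 and 13.10 to 11.35, 11.68 and 12.26, a difference of -1.10 (SE 0.22, adjusted p 3e-04) with no overlap. Its receptor Pdgfrb differed by -0.74 (SE 0.28, adjusted p 0.0691). Rgs4, a regulator of G protein signalling in mural cells, fell from a median of 11.52 to 9.95, by 1.61 on the log2 scale (SE 0.40, adjusted p 0.00439). Mcam (CD146), found on both mural and endothelial cells, fell from 13.86, 14.26 and 14.52 to 12.50, 13.15 and 13.73, a difference of -1.20 (SE 0.32, adjusted p 0.00707). Cspg4 (NG2, -1.08), Kcnj8 (-0.92) and Notch3 (-0.61) also fell. Rgs5, a widely used pericyte marker, differed by -0.11 (adjusted p 0.836).

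Basement membrane genes fell in 7 of 16 measured, with none higher (5 without arrays 19 and 20, and 4 with the RNA ratios as covariates). For this list and the wound matrix and protease lists below, the shares over all genes were 7.11% lower and 4.66% higher. Col15a1, a collagen of vessel basement membranes, fell from a median of 13.51 to 12.56, a difference of -0.92 (SE 0.22, adjusted p 0.00237). Serpinh1, the collagen chaperone HSP47, fell by 0.89 (SE 0.22, adjusted p 0.00382). Col18a1, Lamb1, Lamc1 and Pxdn fell by 0.82, 0.62, 0.84 and 0.48. Among 18 wound matrix genes 5 fell. Timp1, an inhibitor of metalloproteinases, fell from 13.51, 13.69 and 13.94 to 11.55, 12.23 and 13.10, a difference of -1.44 (SE 0.29, adjusted p 0.000346) with no overlap. Tnc (tenascin C, -1.08), Adam12 (-1.12), Inhba (-1.01) and the fibronectin receptor subunit Itga5 (-0.91) fell too. The call of Tnc was lost without arrays 19 and 20, and that of Adam12 with adjacent arrays averaged. Of 20 proteases 8 fell and 1 rose. Adamts4 fell from a median of 12.16 to 10.61, a difference of -1.53 (SE 0.26, adjusted p 1.43e-05), and the collagenase Mmp13 from 11.23 to 9.35, a difference of -1.70 (SE 0.51, adjusted p 0.0192). The Mmp13 call was lost without arrays 19 and 20, with the RNA ratios as covariates and with adjacent arrays averaged. Mmp9 (-0.86), Mmp14 (-0.59) and the urokinase receptor Plaur (-0.76) fell, while the gelatinase Mmp2 rose by 0.82. The protease count was 7 without arrays 19 and 20, and 4 with the RNA ratios as covariates.

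**Figure D2:**
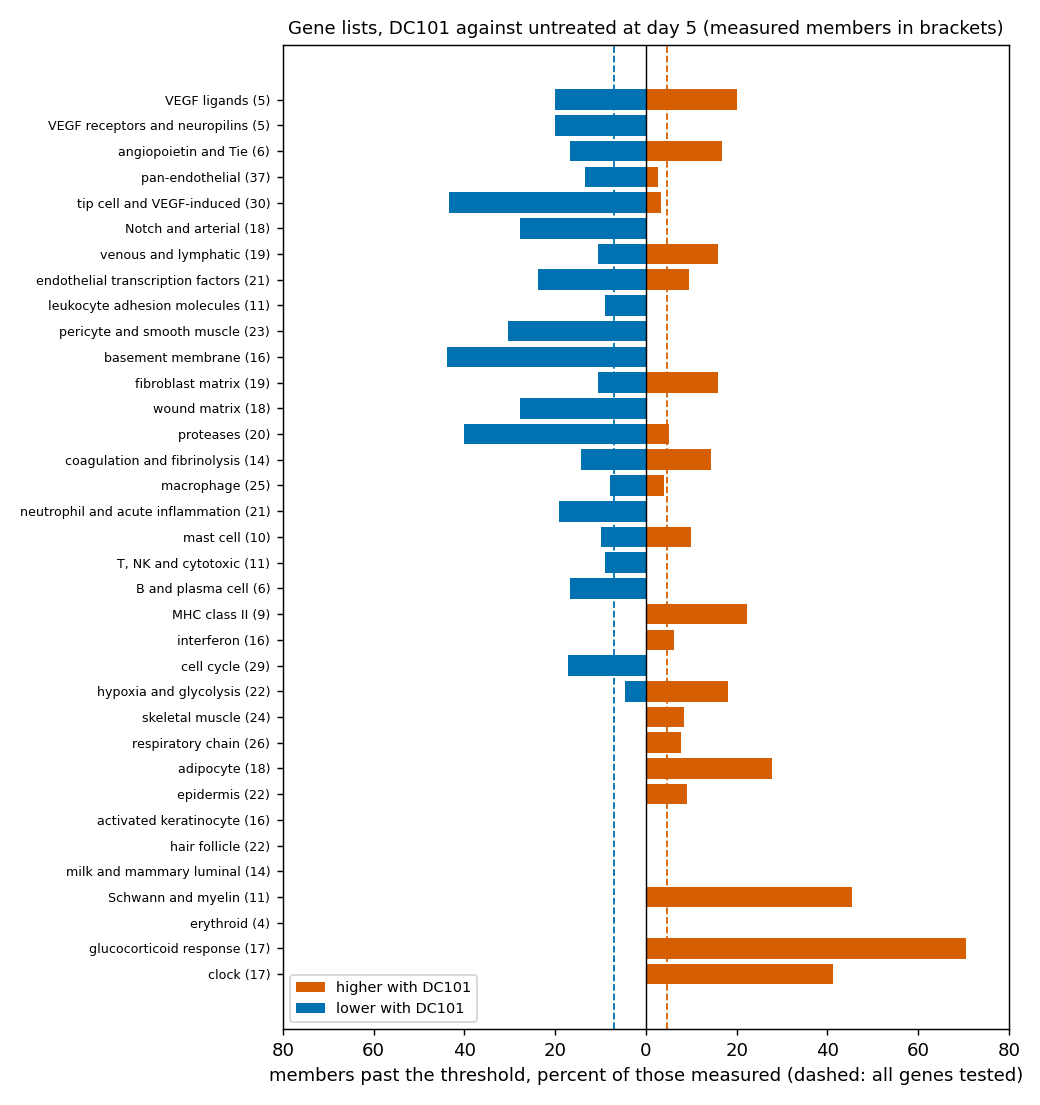
Share of each list's measured members that passed the test in DC101 against untreated tissue at day 5, higher to the right and lower to the left, in percent of the measured members given in brackets. Dashed lines mark 4.66% higher and 7.11% lower over all genes; glucocorticoid genes reach furthest to the right with 12 of 17, and basement membrane genes furthest to the left with 7 of 16.

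The 15 largest falls past the test had various roles. Nts, the peptide neurotensin, which marks lymphatic endothelium among other cells, fell from 10.34, 10.70 and 11.03 to 7.54, 8.34 and 9.10. The difference was -2.29 (SE 0.43, adjusted p 1e-04), 4.88-fold lower, and no arrays overlapped. Cx3cr1, the fractalkine receptor of monocytes and macrophages, fell from 11.31, 11.80 and 12.20 to 9.22, 9.50 and 11.02, a difference of -1.92 (SE 0.22, adjusted p 8.09e-10) without overlap. Ch25h, the cholesterol 25-hydroxylase of activated macrophages, fell from 11.74, 12.25 and 12.57 to 9.16, 10.34 and 11.07, a difference of -1.89 (SE 0.23, adjusted p 6.62e-09). Camp, the neutrophil peptide cathelicidin, ranged from 5.72 to 10.78 untreated (median 8.62) and from 4.84 to 7.87 with DC101 (median 6.11), a difference of -2.07 (SE 0.43, adjusted p 0.000491). All DC101 arrays and the untreated mean of 8.30 lay under 8.44, the level of the signal of 331 used to filter out dim genes, so the size of this fall has no bound. Ccn4, a matricellular Wnt target, fell by 1.70 (SE 0.33, adjusted p 0.000151). The urea transporter Slc14a1 fell by 1.83 (SE 0.37), and Treml4, a receptor of myeloid cells, by 1.68 (SE 0.48). The Treml4 call was lost with adjacent arrays averaged, with the RNA ratios as covariates and with log2(signal + 1). Ccl3, a chemokine for monocytes, fell by 1.68 (SE 0.55, adjusted p 0.0331) but spanned 5.12 to 9.67 with DC101, and its call held in 10 of 16 fits that left out 1 array. Trim5, a restriction factor, fell with an adjusted p of 0.0326, with its call held in 9 of those 16 fits, and has no bound for the same reason as Camp. Abca4, whose DC101 arrays all lay under the filter level, was at least 1.21-fold lower. The Abca4 call held in 12 of 16 fits that left out 1 array and in 6 of 11 alternative settings. It was lost without arrays 19 and 20, with log2(signal + 1) and after adjustment for the RNA ratios. Averaging adjacent arrays, or using them as a block, lost it too. The others of the 15 were Cfap69 (-1.97), Ct55 (-1.78), Zfp949 (-1.78), Zfp57 (-1.74) and Mmp13. The Ct55 call was lost without arrays 19 and 20, with the RNA ratios as covariates and with adjacent arrays averaged.

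Of 25 macrophage genes measured, 2 fell (Cx3cr1 and Msr1) and 1 rose (Cd163), beside 7.11% lower and 4.66% higher over all genes. The mean level of the list was 12.56, 12.74 and 12.88 untreated and 12.05, 12.48 and 12.84 with DC101. The pan-macrophage genes Adgre1, Csf1r and Cd68 differed by -0.27, 0.073 and 0.027, with adjusted p of 0.418, 0.821 and 0.963. The scavenger receptor Msr1 fell by 1.24 (SE 0.27, adjusted p 0.000875) on its brightest probe set, but its other 3 did not pass and 1 of them stood at 0.22. Cd163, the haemoglobin scavenger receptor of resident macrophages, rose by 0.94 (SE 0.29, adjusted p 0.0222), a call lost without arrays 19 and 20. Of 21 neutrophil and acute inflammation genes 4 fell (Ccl3, Ccl4, Ptgs2 and Clec4d) and none rose. Ptgs2, cyclooxygenase 2, fell from 9.61, 10.05 and 10.25 to 7.35, 8.79 and 9.36, a difference of -1.39 (SE 0.33, adjusted p 0.00222) with no overlap, a call lost without arrays 19 and 20 and with the RNA ratios as covariates. Of 11 T, NK and cytotoxic genes 1 fell (Cd4), and of 6 B and plasma cell genes 1 (Cd22).

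Cell cycle genes fell in 5 of 29 (Ccne2, Aurka, Plk1, Mcm2 and Mcm4), with none higher and a median of -0.52. Over all genes 7.11% were lower. Ccne2, the S phase cyclin E2, fell from 10.01, 10.44 and 10.67 to 9.12, 9.63 and 9.81, a difference of -0.86 (SE 0.15, adjusted p 3.01e-05) with no overlap. The proliferation markers Mki67 and Top2a differed by -0.69 and -0.56, with adjusted p of 0.199 and 0.187. This count depended on the model, with 22 lower when only the groups compared were fitted, 21 with array weights, and 2 without arrays 19 and 20.

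Genes that glucocorticoid hormones induce rose with DC101. Of 17 listed glucocorticoid response genes 12 rose and none fell, with a median difference of 1.03, against 4.66% higher over all genes. The count was 11 without arrays 19 and 20, 11 with the RNA ratios as covariates, and 10 to 13 over all alternatives. The mean level of the list was 12.02, 12.11 and 12.32 untreated and 12.92, 13.22 and 13.52 with DC101. In control flank it was 12.41, 12.585 and 12.94. With G6 at day 5 it was 12.75, 12.93 and 13.12, so the G6 arrays too lay above all untreated arrays of day 5. The untreated day 5 median was the lowest of the 10 groups of the series. Against control flank 10 of 17 genes were higher with DC101 and 2 lower (Klf15 and Lcn2), beside 23.3% and 22.6% of all genes. Zbtb16, Klf9, Tsc22d3 and Fkbp5 passed in neither direction against control. Klf15, a transcription factor of glucose and amino acid metabolism, stood at 4.99, 6.47 and 6.88 untreated and 9.20, 9.81 and 10.56 with DC101. The difference was 3.63 (SE 0.34, adjusted p 1.42e-12). All untreated arrays lay below the filter level of 331, and against that level Klf15 was at least 2.70-fold higher with DC101. Zbtb16 (PLZF) rose from 9.57, 9.80 and 10.22 to 11.27, 11.86 and 12.12, a difference of 1.93 (SE 0.24, adjusted p 2.41e-08). Klf9 rose from 12.93, 13.20 and 13.61 to 14.54, 14.91 and 15.18, a difference of 1.64 (SE 0.19, adjusted p 3.35e-09). Tsc22d3 (GILZ), an anti-inflammatory mediator of glucocorticoids, rose from 11.64, 12.13 and 12.35 to 12.53, 13.53 and 14.15, a difference of 1.47 (SE 0.26, adjusted p 3.83e-05). In none of these 4 genes, which were chosen with their values known, did the groups overlap. Ddit4 (REDD1), an inhibitor of mTORC1 that hypoxia induces as well, rose by 1.15 (SE 0.19, adjusted p 6.7e-06). The metallothioneins Mt1 and Mt2, which bind metals, rose by 1.48 and 1.03, Cebpd and Errfi1 by 1.02 each, and the kinase Sgk1 by 0.55. Fkbp5, a chaperone of the glucocorticoid receptor, rose by 0.56 (SE 0.17, adjusted p 0.0214), a call lost without arrays 19 and 20. A dimmer probe set of Fkbp5 stood at 0.19 (adjusted p 0.662). The receptor gene Nr3c1, which is on no list and was looked up after the results were seen, differed by 0.38 (adjusted p 0.0505). No group was given a control antibody. For these genes and the clock genes below, the antibody and its injection therefore cannot be told apart. The hour of collection did not enter the comparison, and its part was not tested.

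Clock genes rose in 7 of 17 (Per1, Per2, Cry2, Nr1d1, Nr1d2, Dbp and Bhlhe40), beside 4.66% higher over all genes. None was lower, and the count that rose was 5 to 11 over the alternatives. The mean level of the clock list was 9.99, 10.06 and 10.22 untreated and 10.32, 10.665 and 10.815 with DC101. With G6 at day 5 it was 10.29, 10.58 and 10.77, again above all untreated arrays of day 5. Against control flank 2 of 17 were higher with DC101 (Npas2 and Per1) and 5 lower (Per2, Per3, Nr1d2, Dbp and Tef). Per1 is on both lists. It encodes a repressor of the clock and stood at 10.48, 10.82 and 11.35 untreated and 12.17, 12.30 and 12.65 with DC101, a difference of 1.53 (SE 0.14, adjusted p 1.06e-12) without overlap. Nr1d1 (REV-ERB alpha), a repressor of Arntl, rose from 8.97, 9.42 and 9.89 to 10.44, 11.09 and 11.29, a difference of 1.48 (SE 0.21, adjusted p 6.96e-07). Per2 rose from a median of 8.11 to 9.08, a difference of 1.06 (SE 0.16, adjusted p 2.64e-06), and Cry2 by 0.96. Arntl (BMAL1), the activator whose RNA peaks in the opposite phase, differed by -0.19 (adjusted p 0.244), and Cry1 and Npas2 by -0.37 and -0.067 (adjusted p 0.158 and 0.859).

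Because these genes rose together, the 250 bases before their starts (RefSeq, build GRCm38.p6) were searched on both strands for ACANNNTGT, a loose form of the glucocorticoid receptor site, and for CACGTG, the E-box that clock activators bind. Of the 12 glucocorticoid genes that rose 10 had a promoter entry. ACANNNTGT was found in 2 of them (Sgk1 and Mt1) and in 4.88% of the 11790 tested genes with an entry. CACGTG was found in 4 (Fkbp5, Per1, Klf15 and Sgk1) and in 9.36% of tested genes. Of the 7 clock genes that rose 5 had an entry, and 1 (Per1) held CACGTG. The stretches around the matches are shown for Klf15, the largest rise, for Per1, the rise with the smallest adjusted p, and for a promoter of Sgk1 that holds both motifs, 5′ to 3′ with the motif in capitals. They lie at chr6:90462326-90462459 (Klf15), chr11:69098733-69098838 (Per1) and chr10:21993640-21993762 (Sgk1), all on the plus strand and upstream of the start.
Klf15: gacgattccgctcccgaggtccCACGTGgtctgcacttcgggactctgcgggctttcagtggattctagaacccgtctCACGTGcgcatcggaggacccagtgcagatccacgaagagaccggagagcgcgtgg
Per1: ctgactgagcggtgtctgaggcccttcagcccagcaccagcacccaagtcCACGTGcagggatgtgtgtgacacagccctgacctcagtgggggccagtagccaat
Sgk1: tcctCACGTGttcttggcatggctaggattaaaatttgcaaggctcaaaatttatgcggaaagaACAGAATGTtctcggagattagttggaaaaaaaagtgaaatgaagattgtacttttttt
The matches describe these letters and do not show that a factor was bound.

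**Figure D3:**
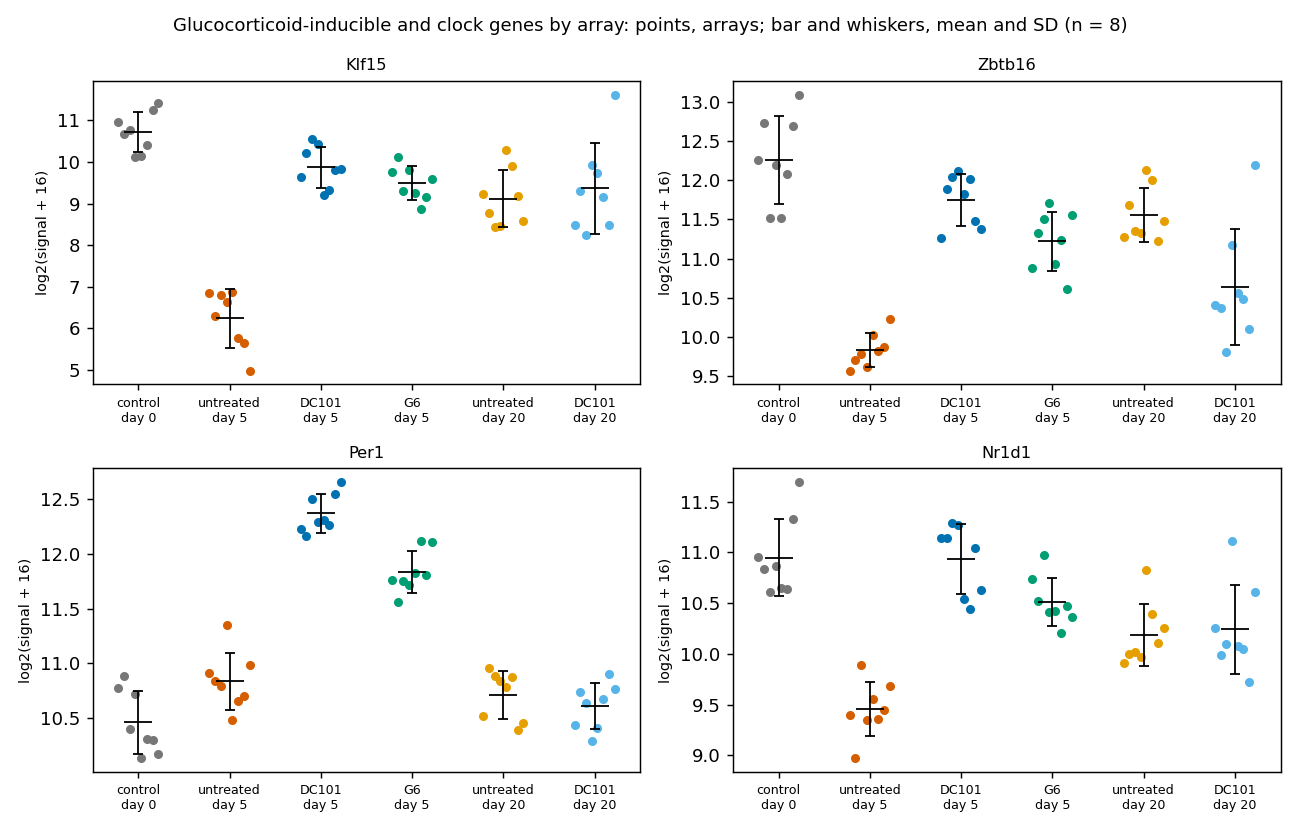
Levels, log2(signal + 16), of the glucocorticoid-inducible genes Klf15, Zbtb16 and Per1 and the clock gene Nr1d1 on each array of control day 0, the untreated, DC101 and G6 groups of day 5, and the untreated and DC101 groups of day 20. Points are arrays, the bar is the mean and whiskers are the SD of 8 arrays; at day 5 every DC101 array lies above every untreated array in all panels, and for Per1 the day 20 groups lie between 10.29 and 10.96.

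**Figure D4:**
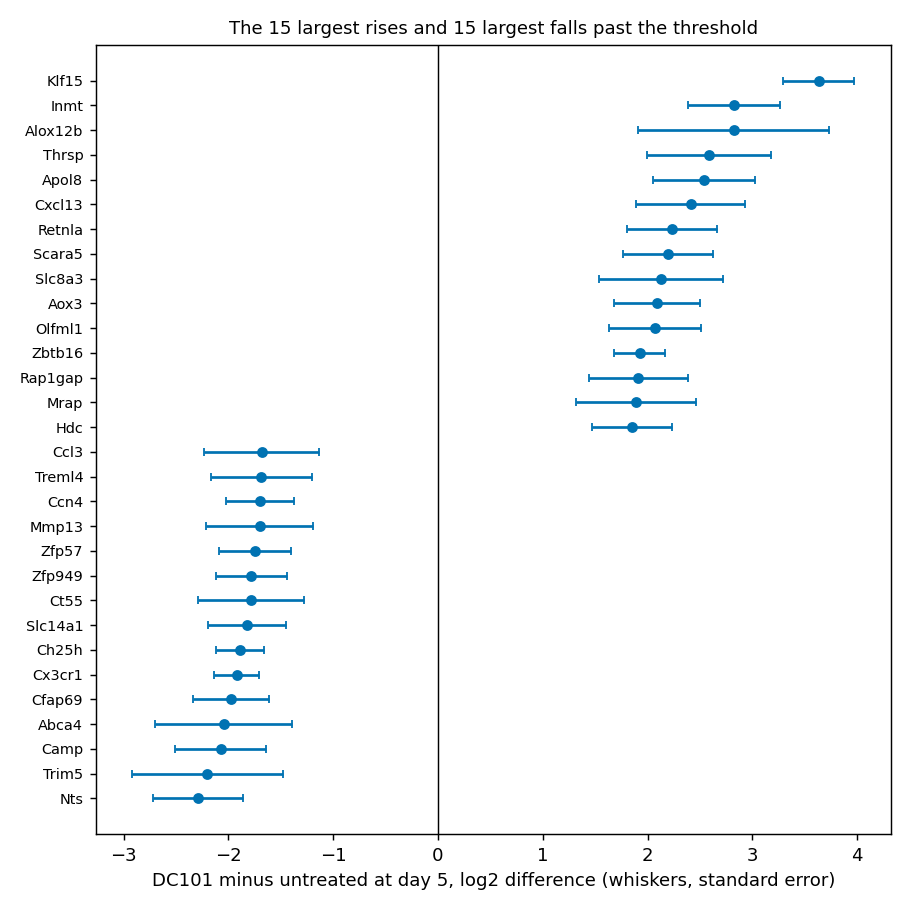
Genes with the 15 largest increases and 15 largest decreases that passed the test, as DC101 minus untreated at day 5 on the log2 scale, with whiskers for the SE of the model. Klf15 leads the rises at 3.63 and Nts the falls at -2.29; the SE is widest for Alox12b (0.91) and Trim5 (0.72).

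The rest of the 15 largest rises had various roles. Inmt, a methyltransferase, rose from 4.63, 8.42 and 9.47 to 9.61, 10.86 and 11.87, a difference of 2.82 (SE 0.44, adjusted p 2.94e-06) with no overlap. Thrsp (Spot 14), a regulator of fat synthesis, rose from 8.28, 8.98 and 10.37 to 10.39, 11.90 and 13.55, a difference of 2.59 (SE 0.59, adjusted p 0.00165), although 1 dim probe set of Thrsp stood at 0.00054. Cxcl13, a B cell chemokine, rose from a median of 9.16 to 11.02 (2.41, SE 0.52, adjusted p 0.000803). Retnla (FIZZ1), a marker of alternatively activated macrophages, rose from 10.83, 13.02 and 14.79 to 14.22, 15.17 and 15.98, a difference of 2.23 (SE 0.43, adjusted p 0.000167) with some overlap. The ferritin receptor Scara5 rose by 2.20 (SE 0.43, adjusted p 0.000208) and Aox3, an aldehyde oxidase, by 2.09 (SE 0.41, adjusted p 0.000229). A dimmer probe set of Scara5 stood at 0.19 (adjusted p 0.584). Hdc, which makes histamine, rose from a median of 8.37 to 9.95 (1.85, SE 0.38, adjusted p 0.000477). Among the other mast cell genes Tpsab1, a tryptase, fell by 0.87, and the remaining 8 of 10 did not pass. Apol8 rose by 2.54 (SE 0.49), at least 1.55-fold by the filter level, and Mrap, the accessory protein of the ACTH receptor, by 1.89 (SE 0.57), at least 1.64-fold. The Mrap call was lost without arrays 19 and 20 and with adjacent pairs as a block. Alox12b, a lipoxygenase of the skin barrier, rose with an adjusted p of 0.0309, a call lost without arrays 19 and 20. It ranged from 4.51 to 6.67 untreated, all under the filter level, and from 5.28 to 10.40 with DC101, with 4 of 8 arrays under that level. The DC101 mean of 8.00 was under it too, so that no bound on its fold can be given. Slc8a3 (2.13), Olfml1 (2.07) and Rap1gap (1.91) were the remaining members of the 15. The Slc8a3 call was lost without arrays 19 and 20, and a dimmer probe set of Slc8a3 stood at 0.18 (adjusted p 0.78).

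Klf4, a transcription factor of endothelium and epidermis, rose from 13.34, 13.73 and 14.23 to 14.27, 14.91 and 15.13, a difference of 1.09 (SE 0.16, adjusted p 2.16e-06) without overlap. Pdpn (podoplanin), found on lymphatic endothelium and activated fibroblasts, rose from 11.14, 11.42 and 12.08 to 12.19, 12.48 and 13.03, a difference of 1.06 (SE 0.17, adjusted p 3.26e-06). Other lymphatic and venous genes were mixed, with 3 of 19 higher (Pdpn, Vwf and Ackr1) and 2 lower (Nts and Itga9). Over all genes 4.66% were higher and 7.11% lower. The Vwf call held in 4 of 16 fits that left out 1 array and was lost without arrays 19 and 20. In the hypoxia and glycolysis list 4 of 22 rose (Bnip3, Adm, Ndrg1 and Ddit4) and P4ha1 fell. Bnip3, a mitophagy protein, rose from 11.60, 11.98 and 12.38 to 12.56, 12.96 and 13.33, a difference of 1.01 (SE 0.25, adjusted p 0.00341) with no overlap. In control flank Bnip3 stood higher, at 13.85, 14.07 and 14.50.

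Median differences of the lists of other cell types lay on both sides of 0. Skeletal muscle genes had a median difference of 0.98, and 2 of 24 rose (Myh1 and Mb), beside 4.66% of all genes. Hair follicle genes had a median of -0.92, with 22 of 22 below 0 and none past the test, and these are the genes that were low on arrays 19 and 20. The 4 erythroid genes measured had a median of -0.22 and none passed. The mean level of the muscle list was 13.03, 13.44 and 14.002 untreated, 13.57, 14.46 and 14.79 with DC101 and 14.83, 15.42 and 16.22 in control flank. The muscle count was 0 without arrays 19 and 20 and 22 in a model of only the groups compared. Adipocyte genes rose in 5 of 18 (Adipoq, Plin4, Slc2a4, Scd1 and Thrsp) with a median of 0.76. Adiponectin, Adipoq, stood at 12.04, 12.30 and 12.71 untreated, 12.39, 13.87 and 15.12 with DC101, and 13.82, 15.51 and 16.05 in control flank. Schwann and myelin genes rose in 5 of 11 (Mbp, Pmp22, S100b, Ncmap and Cdh19), and Ncmap, a myelin protein, rose from a median of 9.01 to 10.28 (1.45, SE 0.35, adjusted p 0.00298) with no overlap. Without arrays 19 and 20 the counts were 2 for adipocytes and 1 for Schwann cells. Of 19 fibroblast matrix genes Dcn (0.85), Lum (1.29) and Dpt (0.89) rose and Col12a1 (-0.97) and Thy1 (-0.75) fell. The shares over all genes were 4.66% higher and 7.11% lower. Without arrays 19 and 20 the fibroblast counts were 1 and 1, with Lum, Dpt and Col12a1 no longer past the test. Of 22 epidermis genes 2 rose, Krt77 and Itgb4. That count was 0 without arrays 19 and 20, with adjacent arrays averaged and with adjacent pairs as a block, and 10 with array weights. The part of these other cell types in the vessel and matrix results was not tested.

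**Figure D5:**
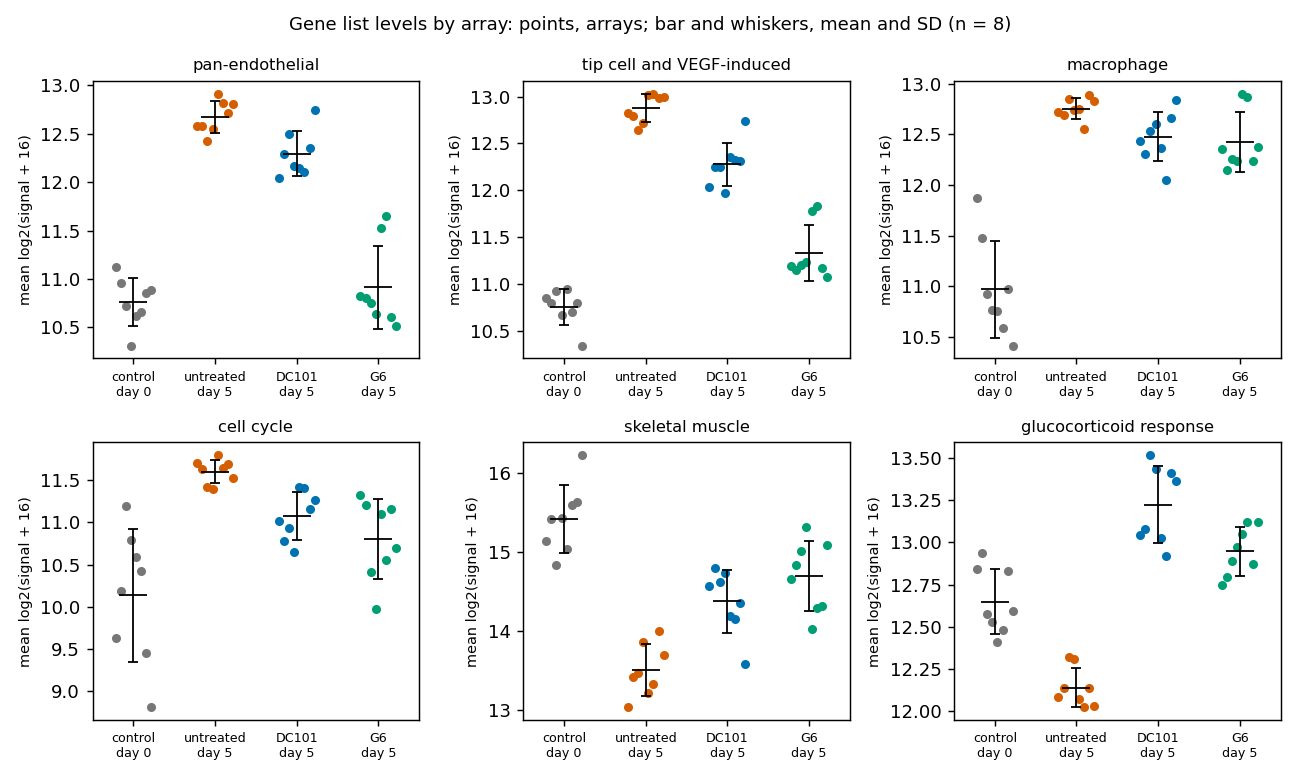
Mean level, log2(signal + 16), over the measured genes of the pan-endothelial, tip cell and VEGF-induced, macrophage, cell cycle, skeletal muscle and glucocorticoid response lists, on each array of control day 0 and the untreated, DC101 and G6 groups of day 5. Points are arrays, the bar is the mean and whiskers are the SD of 8 arrays. Endothelial levels with DC101 (12.04 to 12.74) lie near untreated (12.42 to 12.91) and above G6 (10.52 to 11.65). Glucocorticoid levels with DC101 (12.92 to 13.52) and with G6 (12.75 to 13.12) both lie above all untreated arrays (12.02 to 12.32).

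DC101 tissue differed widely from control flank. Of the 14718 genes 6753 (45.9%) differed, 3431 higher (23.3%) and 3322 lower (22.6%). This comparison shares the DC101 arrays with the preceding one. Of 37 pan-endothelial genes 34 were higher than in control flank and none lower (median 1.56), as were 23 of 25 macrophage genes (median 1.67) and 24 of 29 cell cycle genes (median 1.13). Without arrays 19 and 20 these counts were 32, 21 and 25. Lower with DC101 were 26 of 26 respiratory chain genes, 13 of 18 adipocyte genes and 13 of 14 milk and mammary luminal genes (median -2.61). The largest falls from control were the milk proteins Csn1s2a, Csn1s1, Csn2 and Csn3 and the mammary gene Cited1. Csn2, beta casein, ranged from 8.70 to 16.25 in control flank (median 13.77) and from 6.41 to 8.66 with DC101, and a mammary gland is part of the skin of female mice. Among the largest rises over control were the vessel genes Esm1 (5.17), Fam167b and Kcne3, and the epidermal keratin Krt2 (5.54). Kcne3 was higher by 5.10, at least 15.4-fold against the filter level. Ptgs2 differed from control by -0.15 (adjusted p 0.736), Nr1d1 by -0.01 (adjusted p 0.971), and Per1 was higher than control by 1.91 (adjusted p 1.26e-17).

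Most pan-endothelial genes were higher with DC101 than with G6, whereas venous and lymphatic genes went both ways. Between the antibodies 1688 genes (11.5%) passed, 832 higher with DC101 (5.65%) and 856 lower (5.82%). The 3 prime to 5 prime RNA ratios differed here too, with medians of 1.76 for Actb and 1.24 for Gapdh in the G6 arrays. A model that included both ratios called 1773 genes, and 1025 were shared with the 1688. In that model 28 pan-endothelial and 18 tip cell genes were higher with DC101. The doses were 20 and 10 mg per kg, so the antibodies were not compared at the same dose. Pan-endothelial genes were higher with DC101 in 31 of 37 and lower in none, with a median of 1.38 against -0.043 over all genes. Kdr stood at 10.51, 10.75 and 12.18 with G6, 1.55 below DC101 (SE 0.26, adjusted p 1.8e-05), and Flt1 was higher with DC101 by 1.38 (adjusted p 0.000861). Esm1 stood at 8.33, 8.97 and 11.49 with G6, so that DC101 was higher by 3.91 (SE 0.56, adjusted p 4.85e-07) with no overlap. Fam167b and Ushbp1, both found in endothelium, were higher with DC101 by 3.63 and 3.53. Higher with DC101 were also 18 of 30 tip cell genes, 9 of 18 Notch and arterial genes, 9 of 23 pericyte and smooth muscle genes and 9 of 16 basement membrane genes. Of 19 venous and lymphatic genes 2 were higher (Flt4 and Stab1) and 3 lower (Reln, Ackr1 and Selp), with a median of -0.25. The G6 arrays numbered 13 and 14 held the highest endothelial levels of their group, and Fam167b was 9.84 on both against 5.82 to 7.74 on the other G6 arrays. Without them 32 pan-endothelial and 21 tip cell genes were higher with DC101, and without DC101 arrays 19 and 20 the counts were 30 and 19. With adjacent arrays averaged, 12 tip cell and 3 pericyte genes were higher. Of 4 erythroid genes Alas2 (3.37) and Slc4a1 (1.22) were higher with DC101. By contrast Ccr2 was the sole macrophage gene of 25 to differ, and Timp1, Cxcr4, Cx3cr1 and Nts differed by 0.34, 0.44, -0.08 and 0.51, with adjusted p of 0.497, 0.351, 0.847 and 0.48. Klf15, Klf9 and Tsc22d3 differed between the antibodies by 0.39, 0.21 and -0.14 (adjusted p 0.503, 0.541 and 0.78), whereas Per1 and Per2 were higher with DC101 by 0.54 and 1.28 (adjusted p 0.00602 and 3e-08). The largest genes lower with DC101 were Trim5, Ms4a4b, the progesterone receptor Pgr (-2.01), Zfp235 and Slitrk6. H2-Ea and Idi2 were among the largest higher ones. Idi2, an isoprenoid isomerase, was higher by 4.08 (SE 1.41, adjusted p 0.047), but ranged from 4.57 to 13.59 over the DC101 arrays.

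The effect of DC101 at day 5 differed from its effect at day 20 in 267 genes (1.81%), 133 of them more positive at day 5 (0.904%) and 134 more negative (0.910%). Of 17 glucocorticoid response genes 9 were more positive at day 5 and none more negative, and 6 to 11 were over 6 alternatives run for this list. Klf15, which differed by 3.63 at day 5, stood at 8.43, 8.99 and 10.28 untreated and 8.23, 9.23 and 11.61 with DC101 at day 20, and the difference of effects was 3.38 (SE 0.48, adjusted p 2.66e-06). Per1 stood at 10.39, 10.81 and 10.96 untreated and 10.29, 10.66 and 10.90 with DC101 at day 20, a difference of effects of 1.63 (SE 0.20, adjusted p 4.23e-08). Zbtb16 was lower with DC101 at day 20 by 0.92 (adjusted p 0.0111), and its effects differed by 2.85 (adjusted p 4.23e-08). Cx3cr1 differed by -0.47 at day 20 (adjusted p 0.169), and its effects by -1.45 (adjusted p 0.00277). Hdc, Cxcl13 and Rap1gap were more positive at day 5 by 2.54, 2.71 and 2.75, and Camp, Idi2, Pcdh8, Zfp458 and Mcpt2 were the largest on the other side. Among vessel genes, effects differed in 1 of 37 pan-endothelial genes (Vwf, a call lost without arrays 19 and 20), 2 of 19 venous and lymphatic genes (Pdpn and Vwf), 2 of 21 endothelial transcription factors (Klf4 and Tcf15) and 1 of 23 pericyte and smooth muscle genes, beside 1.81% of all genes. Without arrays 19 and 20 the last 3 counts were 1, 0 and 0. Dll4, Nid2, Pdgfb and Angpt2 differed between the effects by -0.19, 0.30, 0.07 and 0.38, with adjusted p of 0.803, 0.753, 0.944 and 0.682. At day 20 the DC101 arrays numbered 68 and 72 stood apart, and without them 622 genes differed. Without the untreated day 20 arrays 51 and 52 the count was 186. Without the day 5 arrays 19 and 20 the count was 151.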

How the data were processed

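The deposited values are MAS5 signal intensity per probe set, made by the authors with MAS5 in GCOS 1.3 per the submitters' processing notes. From them log2(signal + 16) was computed. Of 45101 probe sets 34958 had 1 symbol in the platform annotation. A probe set stayed in where its signal passed 331, percentile 40 of all values, on 6 arrays or more. The brightest such probe set stood for its gene, giving 14718 genes. Arrays give no counting depth, and their number limits the precision. A limma (3.58.1, R 4.3.3) model over all 78 arrays in 10 groups with eBayes and an intensity trend gave 4 two-sided comparisons, with Benjamini-Hochberg adjustment over the 14718 genes at 0.05. All groups share 1 estimate of spread. A gene whose lower group lay wholly under the filter level also has a fold bound against that level.

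The members and the 35 gene lists (602 of 651 entries measured) were chosen with earlier results of these data known. Named genes are the 15 largest rises and falls past the test, passing over clone and predicted genes, the 3 largest changes past the test in each list, the VEGF and angiopoietin lists, and the 5 largest each way in the other comparisons. Further list members were chosen after their values were seen. Adjacent arrays of a group correlated over all groups together (consensus 0.180), so they were also averaged or used as a block. Their median correlation was 0.310 in DC101 day 5 (other pairs -0.276) and 0.184 in untreated day 5 (other pairs -0.167). It was not seen in every group. The median was -0.230 in DC101 day 20 (other pairs -0.216), -0.152 in G6 day 20 and -0.250 in untreated day 60. In a simulation of DC101 against untreated at day 5 with 14718 genes, the model found 41 of 100 genes shifted by 0.5 on the log2 scale and 75 of 100 shifted by 1. Its 124 calls included 8 genes that had no shift. The simulated noise was normal and independent between genes and arrays. It held no correlation of adjacent arrays, no arrays that stood apart and no difference in RNA ratios. These rates therefore need not hold for the measured arrays.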

Additional observations from a re-analysis of the deposited data

Results flagged for a closer look

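The effect of DC101 differed between day 5 and day 20, by the interaction term of the limma model, for 18 of the genes named for DC101 against untreated at day 5. Genes named for the comparison of the time points alone are given with that comparison. More positive at day 5 were Klf15 (3.38), Zbtb16 (2.85), Rap1gap (2.75), Cxcl13 (2.71), Hdc (2.54), Klf9 (1.81), Ddit4 (1.73), Per1 (1.63), Vwf (1.58), Nr1d1 (1.42), Pdpn (1.26), Per2 (1.22) and Klf4 (0.91), as differences of effects on the log2 scale. More negative at day 5 were Camp (-2.34), Zfp949 (-1.91), Ptgs2 (-1.82), Cx3cr1 (-1.45) and Ccne2 (-0.82).

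A single array lay far from the others of its group in 7 of 272 groups of 8 examined, where chance gives about 1 in 20. With DC101 these were array 24 for Tfpi2 (12.47, nearest other 11.60) and for Col15a1 (13.26, nearest 12.68), and array 19 for Cd4 (7.96, nearest 7.59). Without antibody they were array 3 for Alox12b (6.67, nearest 5.46), array 7 for Clec4d (11.87, nearest 11.29) and for Per2 (7.16, nearest 7.89), and array 8 for Ndufb3 (12.48, nearest 12.78).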

How the results depend on the processing

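The number of genes past the test for DC101 against untreated at day 5, 1732, became 4577 with array weights, 3288 with only the groups compared, 823 with adjacent arrays averaged, 1105 with adjacent pairs as a random block and 914 without DC101 arrays 19 and 20, and ran from 1246 to 2001 with 1 array left out. Against G6, 1688 became 2586, 901 and 1117 with array weights, averaging and the block (1312 to 1854 with 1 array left out). For the effects at day 5 minus day 20, 267 became 2017 with array weights, 57 with averaging, 116 with the RNA ratios as covariates, 126 with the block, 151 without arrays 19 and 20 and 622 without day 20 arrays 68 and 72 (200 to 400 with 1 array left out). Without untreated day 20 arrays 51 and 52 that count was 186. Counts against control stayed within 1.5 times of 6753 under the alternatives run (6122 to 6782 with 1 array left out). The block and the settings that leave out named arrays were chosen after seeing the data. Averaging leaves fewer samples, and the other causes were not tested. Of 98 named calls for DC101 against untreated, averaging kept 62, the block 73, the covariates 68, array weights 98 and leaving out arrays 19 and 20 60. Zfp235 turned to 0.38 with no filter and Msr1 to 0.22 on another of its probe sets. No paired analysis was run because no label ties the arrays of different groups to each other.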

Other observations

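Tfpi2, an inhibitor of serine proteases and coagulation factors, fell with DC101 from 12.22, 12.58 and 13.004 (lowest, median, highest untreated level) to 11.03, 11.44 and 12.47, a difference of -1.10 (SE 0.23, adjusted p 0.000496 by limma). Tissue factor, F3, the starter of coagulation, rose by 0.53 (adjusted p 0.0396). In the coagulation and fibrinolysis list 2 of 14 genes rose and 2 fell, beside 4.66% higher and 7.11% lower over all genes. The count that rose was 0 with adjacent arrays averaged, with the RNA ratios as covariates, with adjacent pairs as a block and without DC101 arrays 19 and 20, so F3 did not pass in these, and 4 with array weights. MHC class II genes, which present antigen, rose in 2 of 9 (H2-Ab1 and H2-DMa), a count of 0 in the same 4 settings and 6 with array weights. Of 16 interferon genes 1 rose, Gbp2, a guanylate-binding protein (0.84, adjusted p 0.0236), beside 4.66% higher over all genes. Its call was lost with adjacent arrays averaged and without DC101 arrays 19 and 20.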
